A study of Mus musculus with 24 samples.

Results

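miR-21a is one microRNA hairpin that gives 2 mature products, miR-21a-5p (mmu-miR-21a-5p) from its 5′ arm and miR-21a-3p (mmu-miR-21a-3p) from its 3′ arm, and both were followed here through mammary gland development in mice. They were found by name and are 2 of the 1009 mature miRNAs listed, and both passed the limit on low values that left 544 miRNAs to test (a stage mean of 1 RPM or more at some stage, where RPM are reads per 1000000 miRNA reads). Small RNA had been sequenced in 24 female C57BL/6 mice, each with 1 library made from its ground abdominal and inguinal glands, stroma and fat included. Each stage had 6 mice. Adult mice were taken at 10 weeks (W10), pregnant mice at day 18 (P18), lactating mice at day 7 (Lac7) and mice in involution, the regression of the gland after weaning, at day 3 (Inv3). No mouse carried a transgene or received a treatment according to the labels and methods, and W10 is used as the reference stage.

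During miRNA maturation a hairpin precursor is cut into a short duplex, and usually one strand is loaded into an Argonaute protein, where it represses mRNAs, while its partner is mostly degraded. miR-21 is known as an abundant miRNA of many cell types, among them epithelial cells, fibroblasts and macrophages, and its gene is a known transcriptional target of STAT3. STAT3 is the transcription factor that drives the death of milk-secreting cells after weaning, when leukocytes and fibroblasts also take part in remodelling the gland.

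The mature sequences of both arms are shown with the names they could be confused with, because their seeds (bases 2 to 8, in capitals) set which mRNAs they can pair with and because near-identical copies could share reads. The sequences are those of RefSeq for GRCm38.p6, written 5′ to 3′.
miR-21a-5p: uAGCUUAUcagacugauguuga
miR-21a-3p: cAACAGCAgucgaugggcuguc
miR-21b: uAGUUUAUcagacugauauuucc
miR-21c: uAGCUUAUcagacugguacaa
The 5p arm lies at chr11:86584120-86584141 and the 3p arm at chr11:86584082-86584103, both on the minus strand, and each is 22 bases long. The hairpin, chr11:86584067-86584158, lies on the same strand as Vmp1, a gene for a membrane protein of autophagy, within the 3′ untranslated part of the last exon of its transcript Vmp1-201. miR-21b comes from chr3:29636768-29636790 on the plus strand and differs from miR-21a-5p at 4 of 22 aligned bases, one of them in the seed. miR-21c comes from chr8:128278188-128278208 on the minus strand, differs at 5 of 21 bases and shares the seed of miR-21a-5p. The search found no other mature sequence with either seed in the RefSeq set used here. Mature sequences outside that set were not searched, so other listed miRNAs could share a seed. miR-21b was counted with 3 reads and miR-21c with 1 read in all 24 libraries, against 513545 reads of miR-21a-5p and 233 of miR-21a-3p, so neither copy was tested.

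The libraries held 660346 to 1165321 reads on listed miRNAs, with the Lac7 libraries at 660346 to 751890. One read was worth 0.858 to 1.51 RPM, and a count of 0 reads allows 2.57 to 4.54 RPM (3 reads, counting error only). In whole glands, fewer cells of a type and less RNA per cell cannot be told apart.

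miR-21a-5p, the arm that is mainly loaded, was highest at W10 and Inv3 and lower at P18 and Lac7. At W10 its level ranged over the mice from 27889.8 to 41060.4 RPM, with a median of 31959 RPM and a mean of 32862 ± 4546 RPM (SD, n = 6). At P18 it ranged from 11166 to 15979.9 RPM, with a median of 13059 RPM and a mean of 13197 ± 1738 RPM (SD, n = 6). Each P18 mouse lay below each W10 mouse. At Lac7 it ranged from 9101 to 13038 RPM, with a median of 10219.8 RPM and a mean of 10648 ± 1361 RPM (SD, n = 6), so that the Lac7 mice overlapped with those of P18 but with no mouse of W10. At Inv3 it ranged from 23915 to 49305 RPM, with a median of 28371 RPM and a mean of 31169 ± 9209 RPM (SD, n = 6). The Inv3 mice lay above all mice of P18 and Lac7 and within and around the range of W10, and 1 of them, mouse 1 with 49305 RPM, stood apart from the other 5, which reached at most 30619 RPM.

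miR-21a-5p thus took 3.29% of the reads in W10 mice, 1.32% in P18 mice, 1.06% in Lac7 mice and 3.12% in Inv3 mice. By mean level it was the miRNA of rank 9 in W10 mice, 17 in P18 mice, 18 in Lac7 mice and again 9 in Inv3 mice. In single libraries its rank went from 7 to 10 in W10 mice, 15 to 18 in P18 mice, 16 to 19 in Lac7 mice and 6 to 12 in Inv3 mice, so that it moved down the order of miRNAs in every P18 and Lac7 library. Its neighbours in that order changed with the stage. At W10 miR-103-3p stood just above it with a mean of 34069 RPM and miR-142a-5p, a leukocyte miRNA, just below with 31988 RPM. At P18 the neighbours were let-7b-5p with 13680.3 RPM and miR-29a-3p with 11975 RPM. Both are miRNAs found in many tissues. At Lac7 they were miR-142b with 11729 RPM and miR-200c-3p, an epithelial miRNA, with 8824 RPM. At Inv3 they were miR-200a-3p with 31552 RPM and miR-103-3p with 25849 RPM. At each stage the range over mice of miR-21a-5p overlapped with that of either neighbour, so these places in the order are not separate beyond the spread.

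miR-21a-3p, the strand that is mostly degraded, had the same order of stages at far lower levels. At W10 it ranged from 9.95 to 24.8 RPM (10 to 26 reads per library), with a median of 19.0 RPM and a mean of 18.4 ± 5.38 RPM (SD, n = 6). At P18 it ranged from 1.02 to 7.46 RPM (1 to 7 reads), with a median of 3.59 RPM and a mean of 4.04 ± 2.58 RPM (SD, n = 6). All P18 mice lay below all W10 mice. At Lac7 it ranged from 0 to 3.03 RPM (0 to 2 reads), with a median of 1.41 RPM and a mean of 1.70 ± 1.15 RPM (SD, n = 6), and mouse 6, the one library without a read, could hold up to 4.21 RPM. The Lac7 mice overlapped with those of P18, and every Lac7 value was below what 0 reads would allow there. At Inv3 it ranged from 12.5 to 17.8 RPM (9 to 20 reads), with a median of 14.8 RPM and a mean of 15.1 ± 2.11 RPM (SD, n = 6). All Inv3 mice lay above all P18 and Lac7 mice and inside the range of W10. By mean level the 3p arm had rank 264 in W10 mice, 349 in P18 mice, 387 in Lac7 mice and 256 in Inv3 mice. Inv3 mouse 1, so high in the 5p arm, had 17.2 RPM of the 3p arm, below the 17.8 RPM of Inv3 mouse 3.

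**Figure D1:**
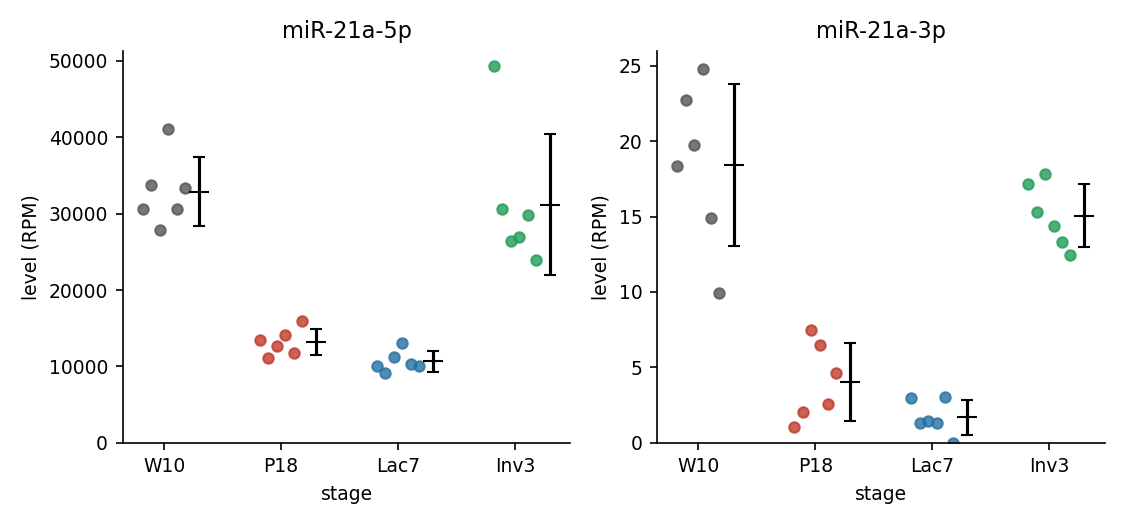
Level of miR-21a-5p (left) and miR-21a-3p (right) in RPM on linear axes from 0, against stage, with 1 point per mouse and a bar for the mean and SD of 6 mice. Both arms are high at W10 and Inv3 and low at P18 and Lac7, the 5p scale reaches 49305 RPM where the 3p scale reaches 24.8 RPM, and Inv3 mouse 1 stands alone in the left panel.

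The first question was whether both arms changed from one stage to the next. Differences were tested with limma on log2(RPM + 1) over all 544 miRNAs in one fit of the 24 libraries, and a call was a two-sided adjusted p under 0.05. The 6 comparisons share stages and are therefore not independent of one another.

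From W10 to P18 both arms fell. The level of miR-21a-5p fell by 1.32 on the log2 scale (SE 0.14, limma adjusted p = 2.1e-08), and its mean was 2.49-fold lower. The level of miR-21a-3p fell by 2.07 (SE 0.35, limma adjusted p = 2.3e-05). Its reads summed over 6 mice went from 111 to 23, a rate per read 4.65-fold lower with a 95% counting interval of 2.95 to 7.64. Of all tested miRNAs 29.4% were called lower in this comparison, and in 16.9% the P18 mice lay entirely below the W10 mice.

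From P18 to Lac7 the change in each arm was near the threshold. The level of miR-21a-5p differed by -0.31 on the log2 scale (SE 0.14, 95% interval -0.59 to -0.02, limma adjusted p = 0.072), which was not called. The exact permutation of log2(RPM + 1) over all splits of 6 mice against 6 gave an unadjusted p = 0.017. The level of miR-21a-3p fell by 0.86 (SE 0.35, limma adjusted p = 0.047), which was called, while the same exact permutation gave an unadjusted p = 0.080. The reads went from 23 to 7, a rate 2.37-fold lower with a counting interval of 0.984 to 6.54 that includes no change. In this comparison 31.4% of the tested miRNAs were called lower. The 3p call was lost in 15 of 24 fits that left out 1 library, with changes from -1.09 to -0.60, and under other settings, among them size factors. With size factors the 5p change was -0.0045 and the 3p change -0.69.

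From Lac7 to Inv3 both arms rose. The level of miR-21a-5p rose by 1.52 on the log2 scale (SE 0.14, limma adjusted p = 2.2e-09) and its mean was 2.93-fold higher. The level of miR-21a-3p rose by 2.70 (SE 0.35, limma adjusted p = 4.2e-07). Its reads went from 7 to 92, a rate 9.17-fold higher with a counting interval of 4.28 to 23.4. No Inv3 mouse overlapped with a Lac7 mouse in either arm. Among all tested miRNAs 27.9% were called higher and 13.6% had Inv3 mice entirely above Lac7 mice. Without Inv3 mouse 1 the 5p increase was 1.37 and the 3p increase 2.66.

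Against W10, Lac7 was lower in both arms. The level of miR-21a-5p was lower by a log2 change of -1.62 (SE 0.14, limma adjusted p = 6.0e-11), 3.09-fold in the means. For miR-21a-3p the log2 change was -2.93 (SE 0.35, limma adjusted p = 3.8e-08), and the rate of reads was 11.0-fold lower with a counting interval of 5.17 to 28.0. The background here was large, since 48.5% of the tested miRNAs were called lower at Lac7 than at W10. In 29.4% the Lac7 mice lay entirely below the W10 mice, as they did in both arms.

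Inv3 and W10 did not differ past the threshold in either arm, in a comparison that called 39.2% of all tested miRNAs in either direction. The difference in level of miR-21a-5p was -0.11 on the log2 scale (95% interval -0.39 to 0.18, limma adjusted p = 0.57), and 0.27 with size factors in place of RPM, so its sign depends on the scaling. For miR-21a-3p it was -0.23 (95% interval -0.95 to 0.49, limma adjusted p = 0.64), and 0.13 with size factors. These intervals leave room for a difference of either sign. Against P18, Inv3 was higher in miR-21a-5p by 1.21 on the log2 scale (limma adjusted p = 1.7e-07) and in miR-21a-3p by 1.84 (limma adjusted p = 2.6e-04). Of all tested miRNAs 10.8% were called higher at Inv3 than at P18 and in 4.23% the mice did not overlap in that direction, as in both arms of miR-21a.

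The scale of the values matters for these levels because RPM are shares of all miRNA reads. Over the 544 miRNAs the median log2 change was -0.32 at P18 relative to W10, -0.34 at Lac7 relative to P18 and 0.28 at Inv3 relative to Lac7, and with size factors it was -0.12, -0.14 and 0.18. With size factors and relative to their median, the log2 difference of miR-21a-5p in these comparisons was -0.95, 0.13 and 1.16. That of miR-21a-3p was -1.70, -0.55 and 2.45. Thus the fall to P18 and the rise to Inv3 lay beyond the median shift in both arms, while the 5p difference between P18 and Lac7 of -0.31 in RPM was no larger than the median shift of -0.34. Against W10, where the median in RPM was -0.66 at Lac7 and -0.41 at Inv3, the RPM difference less the median was -0.96 and 0.30 for miR-21a-5p and -2.27 and 0.18 for miR-21a-3p.

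**Figure D2:**
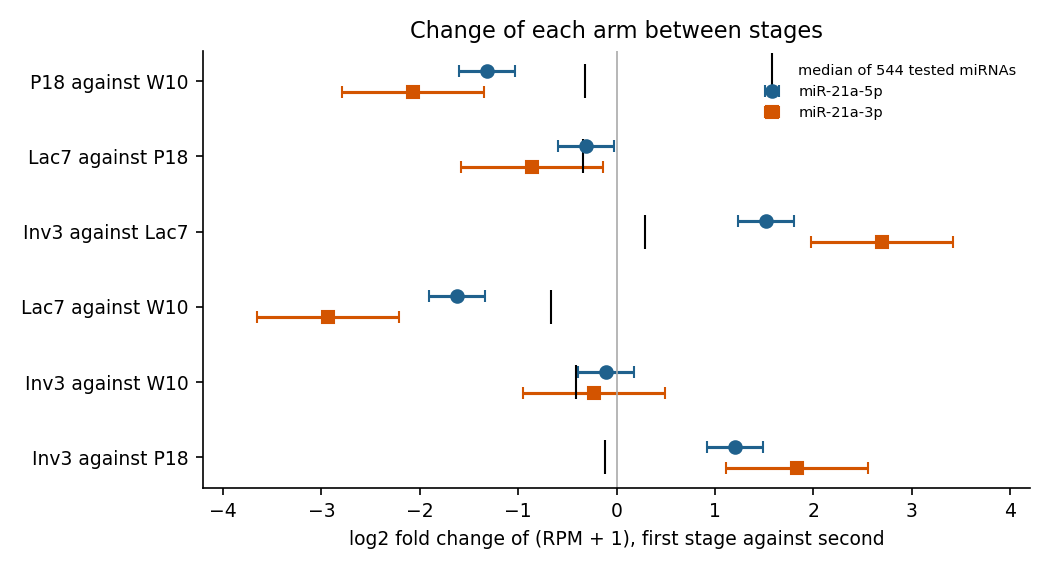
Log2 fold change of (RPM + 1) with 95% limma interval on the x axis for miR-21a-5p (circles) and miR-21a-3p (squares) in each of 6 comparisons, with a tick for the median of the 544 tested miRNAs. Both arms lie on the same side of 0 in each comparison, the 3p points are farther from 0 than the 5p points, and the rise from Lac7 to Inv3 is 1.52 for 5p and 2.70 for 3p.

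The second question was whether the arms changed alike. Both arms come from the same hairpin, and a ratio within a library does not depend on how the library is scaled. Over all libraries 233 of 513778 reads of miR-21a came from the 3p arm, a share of 0.0453% (exact Clopper-Pearson 95% interval 0.0397 to 0.0516%) or 1 read of 3p for 2204 reads of 5p. At W10 the pooled share was 0.0557% (exact interval 0.0459 to 0.0671%), 1 read for 1793. At P18 it was 0.0300% (0.0190 to 0.0451%), 1 read for 3328, and the intervals of W10 and P18 did not overlap. At Lac7 it was 0.0156% (0.00627 to 0.0321%), 1 read for 6415. At Inv3 it was 0.0476% (0.0384 to 0.0584%), 1 read for 2099. The interval of Lac7 ended below the start of those of W10 and Inv3, and the intervals cover counting error only, not the spread between mice.

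In single mice the share of 3p reads ran from 0.0299 to 0.0708% in W10 mice, from 0.00755 to 0.0591% in P18 mice, from 0 to 0.0298% in Lac7 mice and from 0.0348 to 0.0672% in Inv3 mice. All Lac7 mice lay below all W10 and Inv3 mice in the read share itself, by a narrow margin against W10, where mouse 7 had 0.0299%. How many other hairpins were separated in this way was not counted, so the separation cannot be called particular to miR-21a. The Lac7 mouse at 0, with 7152 reads of 5p, could hold a share of up to 0.0419%. At P18 the mice were most spread, with mouse 1 at 1 read and mouse 3 at 7 reads of 3p.

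If the 3p share of W10 had held at the other stages, the 5p reads counted there would have come with 42.7 reads of 3p at P18, where 23 were counted, with 25.0 at Lac7, where 7 were counted, and with 107.7 at Inv3, where 92 were counted. With the share of Inv3, Lac7 would have had 21.4 reads. The difference between the arms at Lac7 thus rests on few reads.

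**Figure D3:**
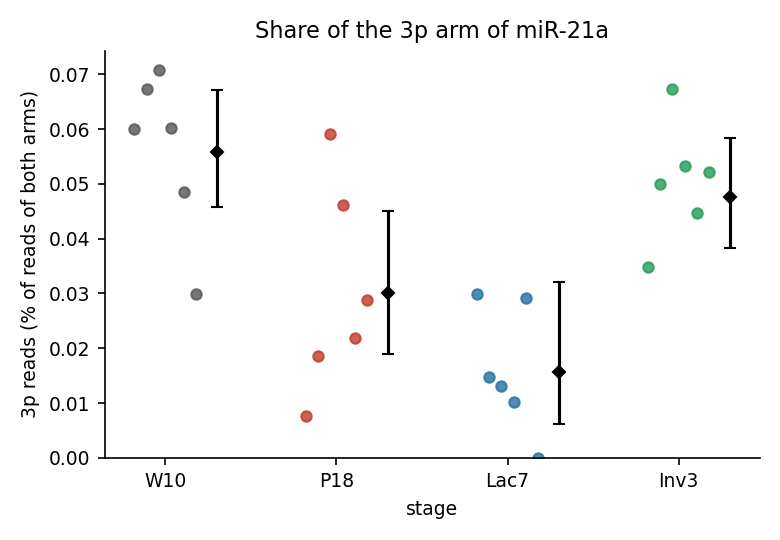
Reads of miR-21a-3p as a percentage of the reads of both arms, on a linear axis from 0, against stage, with 1 point per mouse and a diamond for the pooled share of 6 mice with its exact 95% interval (counting error only). The pooled share is 0.0557% in W10 mice, 0.0300% in P18 mice, 0.0156% in Lac7 mice and 0.0476% in Inv3 mice, and 1 Lac7 mouse is at 0.

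The difference between the arms was tested as the log2 ratio of 3p to 5p, each as RPM + 1, with limma over the 159 hairpins whose arms both passed the limit on low values. The ratio of miR-21a averaged -10.77 ± 0.43 in W10 mice, -11.52 ± 0.76 in P18 mice, -12.07 ± 0.75 in Lac7 mice and -10.89 ± 0.31 in Inv3 mice on the log2 scale (SD, n = 6 each). From Lac7 to Inv3 the ratio rose by 1.19 (SE 0.35, 95% interval 0.47 to 1.90, limma adjusted p = 0.012), that is, the 3p arm rose more than the 5p arm. Of the 159 hairpins 16.4% were called toward 3p in this comparison. Between W10 and Lac7 the ratio fell by 1.31 (SE 0.35, 95% interval -2.02 to -0.59, limma adjusted p = 0.0035), and 25.8% of the hairpins were called toward 5p. The exact permutation test on the ratio of reads, with 0.5 read added to each arm, gave an unadjusted p = 0.0065 in both comparisons. In the fitted ratio, unlike the read share, mice of Lac7 overlapped with those of W10 and Inv3.

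The other 4 comparisons of the arm ratio did not pass the threshold. The ratio differed by -0.75 from W10 to P18 (95% interval -1.47 to -0.04, limma adjusted p = 0.11), where 13.2% of the hairpins were called toward 5p, and the exact permutation on the ratio of reads gave -0.91 with an unadjusted p = 0.045. Leaving out P18 mouse 3, the mouse with the most 3p reads at that stage, gave -0.95, which was called. From P18 to Lac7 it differed by -0.55 (limma adjusted p = 0.29), with 10.1% of the hairpins called toward 5p. Between Inv3 and P18 it differed by 0.63 (limma adjusted p = 0.21), with 8.81% called toward 3p, and between Inv3 and W10 by -0.12 (95% interval -0.83 to 0.59, limma adjusted p = 0.88), with 4.4% called toward 5p.

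The result depends on the constant added to the values. The 3p means, 1.70 to 18.4 RPM, are below or near an added 10 RPM, which flattens the 3p arm and leaves the 5p arm as it was. With that constant the change of the ratio turned to -0.41 from Lac7 to Inv3, past the threshold in the opposite direction, and to 0.36 between W10 and Lac7. With 0.1 RPM added, these changes were 2.12 and -2.25.

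Among the 159 hairpins tested, miR-21a was near the far end of arm preference. The mean share of its minor arm over the 24 libraries was 0.0382%, against a median of 6.28% over the 159 hairpins, of which 100 had more 5p than 3p reads. Only 4 of the 159 had a smaller minor share, miR-101a, miR-23b, miR-25 and let-7b. Of the 287 hairpins with both arms listed, those with an arm under the limit on low values were left out. The rank and the median therefore hold among the 159 only. Of the 6 hairpins at least as abundant as miR-21a, itself included, none had a smaller share. The hairpins nearest in their 3p share were let-7e with 0.0383%, miR-146b with 0.0405% and let-7b with 0.0352%. Between W10 and Lac7 the arm ratio moved toward 5p in let-7e, by a log2 change of -2.10 (limma adjusted p = 6.3e-05), and in miR-146b, by -2.34 (limma adjusted p = 1.0e-05), as in miR-21a, while in let-7b it differed by 0.29 (limma adjusted p = 0.65). The pooled 3p share of let-7e was 0.0795% at W10 and 0.00501% at Lac7, that of miR-146b 0.0843% and 0.0217%, and that of let-7b 0.0342% and 0.0459%. These shares rest on few reads of 3p, with means per library of 1.33 in let-7e, 4.79 in miR-146b and 3.75 in let-7b.

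The arm changes of miR-21a were moderate beside those of other hairpins. From Lac7 to Inv3, 33 of the 159 hairpins had a larger absolute change, and between Lac7 and W10, 40 had one. The called hairpins with the largest change from Lac7 to Inv3 were let-7d, by 2.54 toward 3p (limma adjusted p = 1.4e-06), and miR-122, by -2.99 toward 5p (limma adjusted p = 0.047). The fitted change of miR-122 rests on few reads, a mean of 1.54 reads of 3p per library. Its pooled 3p share went the other way, from 0% at Lac7 to 2.11% at Inv3. Between W10 and Lac7 the largest called changes were those of miR-20b, by 2.67 toward 3p (limma adjusted p = 2.8e-04), and miR-466i, by -3.58 toward 5p (limma adjusted p = 4.3e-06). These 2 also rest on few reads, with means of 1.54 and 1.71 reads of 3p per library. From W10 to P18 the largest change was that of miR-146b, another hairpin linked to STAT3, which changed by -2.98 toward 5p (limma adjusted p = 1.1e-06).

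**Figure D4:**
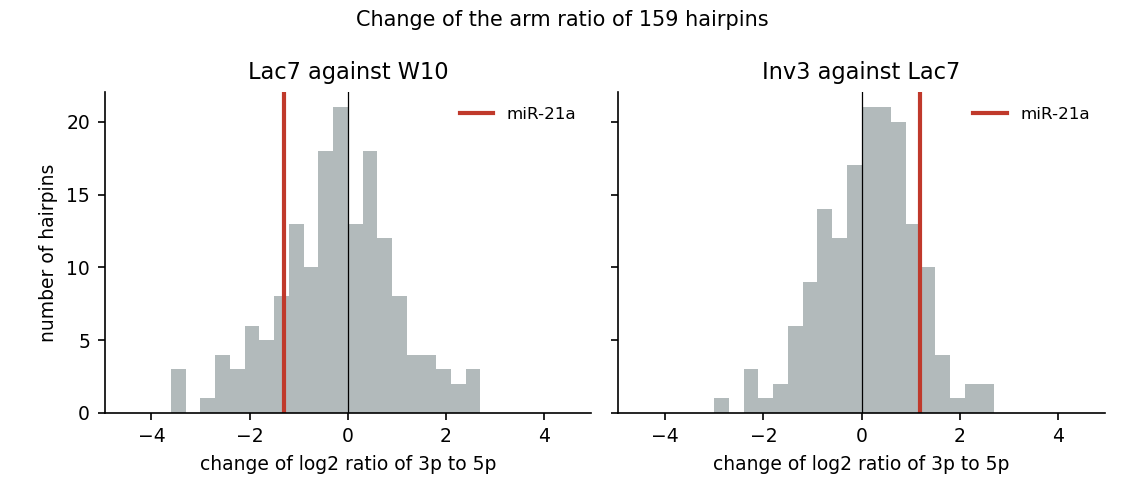
Number of hairpins (y axis) by change of the log2 ratio of 3p to 5p (x axis) between W10 and Lac7 (left) and between Lac7 and Inv3 (right), for 159 hairpins with a red line for miR-21a. The line lies at -1.31 on the left and 1.19 on the right, inside the spread of the other hairpins.

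The third question was how miR-21a compared with other miRNAs linked to STAT3. The list of 8 held miR-181b-5p, known with miR-21 as a STAT3 target in epithelial transformation, miR-146b-5p, a STAT3 target that restrains NF-κB signalling, and 6 members of the miR-17-92 cluster, a STAT3-responsive cluster that promotes proliferation. All 8 were tested. From Lac7 to Inv3, where both arms of miR-21a rose, 2 of the 8 rose and 3 fell, while of all tested miRNAs 27.9% were called higher and 18.9% lower, and the median log2 change was -0.10 against 0.28 over all tested miRNAs. miR-92a-3p rose by 1.18 (limma adjusted p = 1.9e-04) and miR-19b-3p by 0.72 (limma adjusted p = 0.0044). miR-181b-5p fell by 2.21 (limma adjusted p = 4.9e-08) and miR-146b-5p fell by 1.78 (limma adjusted p = 2.6e-06). Called members of the list thus went in both directions.

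From W10 to P18, where miR-21a fell, 5 of the 8 rose and 1 fell, with a median of 0.86 against -0.32 over all tested miRNAs, and with size factors 7 rose and none fell. Of all tested miRNAs 12.1% were called higher and 29.4% lower in that comparison. The largest was miR-146b-5p, whose level rose by 3.73 (limma adjusted p = 1.8e-11). Its mean was 2358 ± 400 RPM in W10 mice, 31080.4 ± 2803 RPM in P18 mice, 50208 ± 2446 RPM in Lac7 mice and 17185 ± 9197 RPM in Inv3 mice (SD, n = 6 each), an order of stages that runs against that of miR-21a-5p. From P18 to Lac7, 1 of the 8 rose and 6 fell, with a median of -0.98 against -0.34, and with size factors 2 rose and 5 fell, where 13.8% of all tested miRNAs were called higher and 31.4% lower. Between Lac7 and W10, 3 were higher at Lac7 and 4 lower with a median of -0.25, and with size factors 4 were higher and 1 lower with a median of 0.30, where 18.2% of all tested miRNAs were called higher and 48.5% lower in RPM. miR-92a-3p, lower by a log2 change of -2.90 at Lac7 than at W10 (limma adjusted p = 3.4e-11), had a difference close in size to the -2.93 of miR-21a-3p. Between Inv3 and P18, where miR-21a was higher at Inv3, none of the 8 was higher and 7 were lower, with a median of -1.12 against -0.11, where 10.8% of all tested miRNAs were called higher and 17.6% lower. Between Inv3 and W10, 1 was higher and 2 were lower, and with size factors 2 were higher and 1 was lower, where 7.9% of all tested miRNAs were called higher and 31.2% lower in RPM.

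The gland changes its cell makeup between these stages, and lists of miRNAs of the main cell types were followed beside miR-21a. In RPM all 6 leukocyte miRNAs (among them miR-142a-3p, miR-223-3p and miR-155-5p) were called lower at P18 than at W10 and lower again at Lac7. All 6 rose from Lac7 to Inv3, with a median log2 change of 1.72. With size factors 5 of the 6 were called lower at Lac7 than at P18. Of all tested miRNAs 29.4% were called lower at P18 than at W10, 31.4% lower at Lac7 than at P18 and 27.9% higher at Inv3 than at Lac7. Their summed level ranged from 28313 to 52037 RPM in W10 mice, from 8714 to 24823 RPM in P18 mice, from 4479.9 to 12798 RPM in Lac7 mice and from 14459 to 26834 RPM in Inv3 mice. Their summed level at Inv3 thus stayed below that at W10, a comparison in which miR-21a did not pass the threshold. In RPM 5 of 6 were called lower, where 31.2% of all tested miRNAs were, and with size factors 1 was lower and 1 higher. The member not called in RPM was miR-223-3p (-0.01 on the log2 scale, limma adjusted p = 0.97). Most of the leukocyte sum was miR-142a-5p, with a mean of 31988 RPM at W10 and 13908 RPM at Inv3.

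Of the 5 stromal miRNAs, such as miR-199a-3p of fibroblasts and miR-143-3p of smooth muscle, 3 fell and 1 rose at P18, 3 fell and none rose between P18 and Lac7, and all 5 rose by Inv3. Of all tested miRNAs 29.4% and 31.4% were called lower in the first and second of these steps and 27.9% higher in the last. The stromal sum ranged from 169005 to 211305 RPM in W10 mice, 191012 to 214796 RPM in P18 mice, 147025 to 171127 RPM in Lac7 mice and 256725 to 349601 RPM in Inv3 mice, where it was above that of every other stage. Most of that sum was miR-143-3p, with a mean of 246219.8 RPM at Inv3. In RPM, miR-199a-3p (-0.76), miR-199a-5p (-0.65) and miR-214-3p (-1.34) were called lower at Inv3 than at W10 on the log2 scale, and 2 of the 5 higher. Of all tested miRNAs 31.2% were called lower and 7.9% higher in that comparison. With size factors 2 of the 5 were lower and 2 higher. The 7 epithelial miRNAs, led by the miR-200 family, mostly went against miR-21a, with 5 higher and none lower at P18 than at W10, 5 higher and 1 lower at Lac7 than at P18, and 1 higher and 6 lower at Inv3 than at Lac7. Of all tested miRNAs 12.1% and 13.8% were called higher in the first and second of these comparisons and 18.9% lower in the last. The exception in the second and last was miR-205-5p, with log2 changes of -1.57 and 2.06. All 7 were called higher at Inv3 than at W10, where 7.9% of all tested miRNAs were. The epithelial sum ranged from 15092 to 21415 RPM in W10 mice, 49233 to 64073 RPM in P18 mice, 114823 to 134226 RPM in Lac7 mice and 24229 to 79001 RPM in Inv3 mice.

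Of the smaller lists some members fell with miR-21a from W10 to P18, where 2 of 3 skeletal muscle miRNAs (list median -3.33), 2 of 3 red blood cell miRNAs (list median -1.07, 1 higher and 2 lower with size factors) and 1 of 2 endothelial miRNAs were called lower and none higher. Between W10 and Lac7, 2 of the 3 muscle miRNAs were lower (1 with size factors), 1 red blood cell miRNA was higher and 1 lower, and 1 endothelial miRNA was higher. Of 2 endothelial miRNAs 1 fell from Lac7 to Inv3 and none rose, of 3 skeletal muscle miRNAs 2 fell, and of 3 red blood cell miRNAs 1 rose and 1 fell. Of all tested miRNAs 29.4% were called lower at P18 than at W10. At Lac7 48.5% were called lower and 18.2% higher than at W10, and at Inv3 18.9% lower and 27.9% higher than at Lac7. No member of any of these lists was at 0 in all mice of a stage. The part of these cell types in the changes of miR-21a was not tested.

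The relation between mice was also examined within a stage. After subtracting stage means, the log2 levels of both arms had r = 0.20 over 24 mice (permutation p = 0.26, adjusted p = 0.47 over 7 relations) and rho = 0.32 (permutation p = 0.15, adjusted p = 0.35), and r was 0.14 without the 2 mice farthest from the median. miR-21a-5p had r = 0.38 with the leukocyte sum (permutation p = 0.051, adjusted p = 0.36) and rho = 0.41 (permutation p = 0.054, adjusted p = 0.35), with r = 0.41 without 2 mice. This was the relation with the smallest p of the 7. With the epithelial sum it had r = -0.45 (permutation p = 0.14, adjusted p = 0.47) and rho = -0.37 (permutation p = 0.12, adjusted p = 0.35), with r = -0.42 without 2 mice. With the stromal sum it had r = 0.33 (permutation p = 0.27, adjusted p = 0.47) and rho = 0.25 (permutation p = 0.28, adjusted p = 0.49), with r = 0.50 without 2 mice. The 3 relations of miR-21a-3p with these sums had r between 0.02 and 0.11 and rho between 0.01 and 0.10, and without 2 mice r was 0.31 with the leukocyte sum, 0.15 with the stromal sum and 0.10 with the epithelial sum. None of the 7 relations passed the threshold in RPM. With size factors in place of RPM, miR-21a-5p had r = 0.41 with the leukocyte sum, 0.43 with the stromal sum and -0.57 with the epithelial sum. These values of r were larger in size than those in RPM, and no p-value is given for them here. With size factors the 2 arms had r = 0.19, and miR-21a-3p had r between -0.02 and 0.13 with the sums.

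The Inv3 mice differed among themselves in the lists as well. The epithelial sums of mice 1, 2 and 5 were 27687, 24229 and 31074 RPM, and those of mice 3, 4 and 6 were 74334, 60457 and 79001 RPM. miR-21a-5p was at 49305, 30619 and 29801 RPM in mice 1, 2 and 5 and at 26433, 26941 and 23915 RPM in mice 3, 4 and 6. The 3 mice with the lower epithelial sums thus held the 3 highest 5p values of the stage. The same mice also held the 3 highest leukocyte sums, at 26609, 26834 and 19122.5 RPM against 14459 to 18859.7 RPM in the others, and the 3 highest stromal sums, at 302322 to 349601 RPM against 256725 to 284262 RPM. miR-21a-3p showed no such order, with 17.2, 15.3 and 13.3 RPM in mice 1, 2 and 5 and 17.8, 14.3 and 12.5 RPM in mice 3, 4 and 6. The mice were grouped here by their epithelial sums, and the grouping was not tested. RPM are shares of the same reads, so these sums and miR-21a-5p are not independent of one another.

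**Figure D5:**
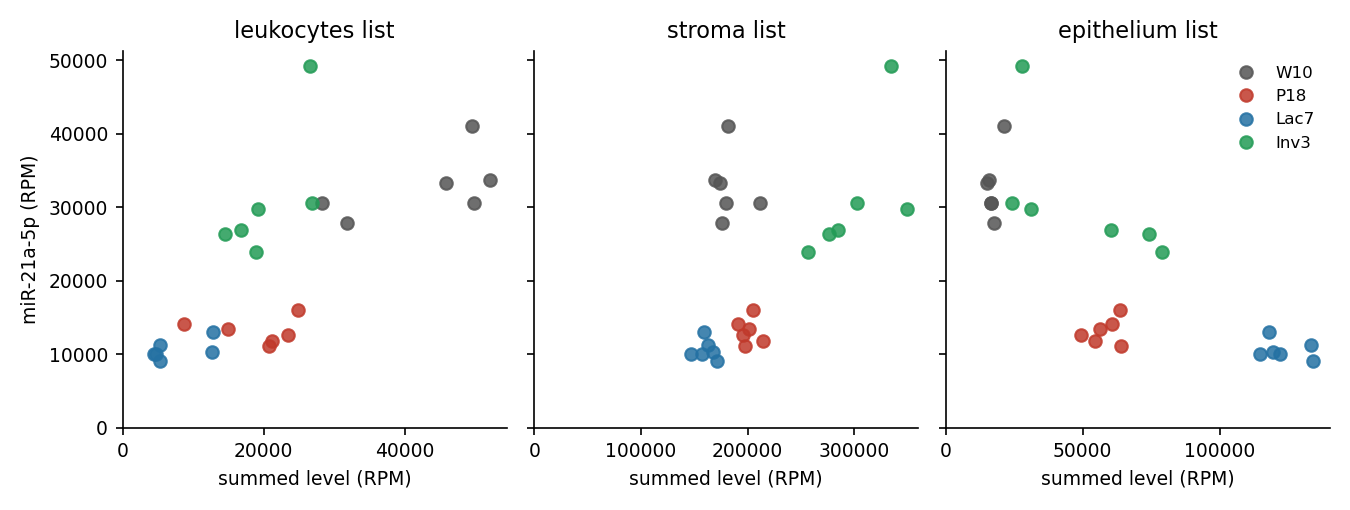
Level of miR-21a-5p (y axis, RPM) against the summed level of the leukocyte, stromal and epithelial lists (x axes, RPM) on linear axes, with 1 point per mouse coloured by stage. The Lac7 mice combine low miR-21a-5p with low leukocyte sums and the highest epithelial sums, and Inv3 mice have the highest stromal sums and epithelial sums from 24229 to 79001 RPM.

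Some miRNAs followed miR-21a closely over the 24 libraries. Likeness was measured as Pearson's r of log2(RPM + 1) with 321 miRNAs that reached a mean of 10 RPM at 1 or more stages, and it is a description, since all miRNAs share the libraries and the stages. For miR-21a-5p the 5 most alike were miR-339-5p (r = 0.94), miR-140-3p (r = 0.94), miR-486a-3p (r = 0.91), its own 3p arm (r = 0.89) and miR-350-3p (r = 0.89). For miR-21a-3p they were miR-339-5p (r = 0.90), miR-140-3p (r = 0.89), its own 5p arm (r = 0.89), miR-218-5p (r = 0.85) and miR-486a-3p (r = 0.85). The other arm was thus 4th in likeness for 5p and 3rd for 3p. miR-140-3p, known from cartilage and other mesenchymal cells, had means of 3463 RPM in W10 mice, 1467 RPM in P18 mice, 1236 RPM in Lac7 mice and 3336 RPM in Inv3 mice. miR-339-5p had 485.8 RPM, 198.1 RPM, 175.4 RPM and 478.4 RPM at these stages in turn.

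The miRNAs least like either arm were the same 3. miR-210-3p, the miRNA of the hypoxia response, had r = -0.94 with 5p and -0.87 with 3p and went from 31.6 RPM at W10 to 737.4 RPM at Lac7 and 74.2 RPM at Inv3. miR-148a-3p, an abundant miRNA of milk, had r = -0.90 with 5p and -0.83 with 3p and went from 2356 RPM at W10 to 46228 RPM at Lac7 and 9078 RPM at Inv3. let-7a-5p had r = -0.90 with 5p and -0.83 with 3p, with 51405 RPM at W10, 82331 RPM at Lac7 and 56559 RPM at Inv3.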

How the data were processed

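The authors extracted small RNA with the mirVana kit, made libraries with the QIAseq miRNA kit and assigned reads with QuickMIRSeq and miRBase 22. The submitters' processing notes also name Trimmomatic 0.36, FastQC, MultiQC, cutadapt and GRCm38. Whether molecular identifiers were counted is not given in the sources used here, and unequal ligation of the arms would alter their ratio. The authors deposited RPM, reads per 1e6 reads on listed miRNAs (1000000 RPM per library). Within each library the deposited RPM step by the value of a single read, so that dividing by it returned whole reads, for 100% of the values to within 0.0051 RPM, with reads summing to the library total in each of the 24 libraries. Labels gave day 7 of lactation and day 3 of involution and were followed, although the series' design text has these days the other way round.

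Tests required a stage mean of 1 RPM or more at some stage and used limma 3.58.1 (lmFit, eBayes with trend) in R 4.3.3 on log2(RPM + 1) over 24 libraries, with Benjamini-Hochberg adjustment over 544 miRNAs or, for arm ratios, 159 hairpins, and calls at 0.05. Fold changes on this scale understate those of low miRNAs such as miR-21a-3p. Single values were also set side by side by exact permutation over all splits of 6 mice against 6 (two-sided, smallest possible p 0.0022). Correlations used 100000 permutations within stages. As an alternative, edgeR 4.0.16 and DESeq2 1.42.0 were run on the recovered reads. Remaining steps ran in python 3.11.15 (scipy 1.17.1, pandas 2.3.3, numpy 2.4.6, matplotlib 3.10.9). The fits were tested on simulated data, where unchanged miRNAs made up a larger share of limma's calls on levels between P18 and W10 than its threshold states, and were called more often than by edgeR or DESeq2.

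Libraries of 1 stage differed by more than sampling noise (smallest chi-square per degree of freedom 9.63 over 60 pairs), so none was counted as a duplicate. The p-values measure the spread between mice, which includes counting error. The chi-square is summed over miRNAs and does not show the part of counting error in a single one. That part can be large for miR-21a-3p, with 1 to 7 reads per library at P18 and 0 to 2 at Lac7. Both members were found by name. The other miRNAs named were near-identical copies, up to 4 called members of the STAT3-linked list per comparison by size of change, the 5 most and 3 least alike by r, the neighbours by mean level, the 3 hairpins nearest in 3p share and the called hairpins with the largest arm changes, plus the hairpins with a smaller minor share and examples from the lists of cell types, which were chosen after their values were seen. Members and lists were chosen with earlier results of these data known.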

Additional observations from a re-analysis of the deposited data

Results flagged for a closer look

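miR-21a-5p in Inv3 mouse 1 was the one value of a group that lay far from the others. It was 49304.87 RPM where the other 5 Inv3 mice had 23915 to 30619 RPM, so that its gap to the next mouse was 0.74 of the range of the group, above Dixon's 95% critical value of 0.625 for 6 mice. Of 12 groups examined (levels of both arms and their ratio at 4 stages) 1 was marked in this way, and chance marks about 1 in 20. In the same mouse the leukocyte sum was 26609 RPM, the stromal sum 334463 RPM and the epithelial sum 27687 RPM, each inside the range of the other Inv3 mice. Without this mouse miR-21a-5p was still called higher at Inv3 than at Lac7, by 1.37 on the log2 scale, and than at P18, by 1.07, and the difference from W10 was -0.25 and not called.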

How the results depend on the processing

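The falls of both arms from W10 to P18 and Lac7 and their rises from Lac7 and P18 to Inv3 kept their direction and call under every alternative run that gives a value (pseudocounts of 0.1 and 10 RPM, no filter or one at 100 RPM, size factors, RPM without both arms, a fit of 12 libraries, the block, edgeR and DESeq2), and in each fit without 1 library. miR-21a-3p does not reach 100 RPM and has no value under that filter, which lowered the number of called miRNAs to 127, 132, 151, 164, 123 and 101 in the comparisons P18 against W10, Lac7 against P18, Inv3 against Lac7, Lac7 against W10, Inv3 against W10 and Inv3 against P18, with fewer miRNAs tested. The small differences moved. For miR-21a-5p between P18 and Lac7 the change of -0.31 was called with the 100 RPM filter and with the fit of 12 libraries, and without P18 mouse 2 (-0.35), Lac7 mouse 4 (-0.37) or Inv3 mouse 1 (-0.31), with a range of -0.37 to -0.25 without 1 library. For miR-21a-3p between P18 and Lac7 the call was lost with a pseudocount of 10 RPM (-0.25), no filter (-0.86), size factors (-0.69), 12 libraries (-0.86), edgeR (-1.04) and DESeq2 (-0.95), and without 1 library it ranged from -1.09 to -0.60. That call was kept in 9 of the 24 fits without 1 library, those without W10 mouse 4 or 7, P18 mouse 1, 2 or 5, Lac7 mouse 1 or 5, or Inv3 mouse 2 or 6, and lost without any other. The difference between Inv3 and W10 changed sign for 5p with size factors (0.27), edgeR (0.34) and DESeq2 (0.31) and for 3p with the same alternatives (0.13, 0.13 and 0.10), never called, and the cause was not tested.

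For the arm ratio, a pseudocount of 10 RPM turned the change to 0.30 (P18 against W10), 0.059 (Lac7 against P18), -0.41 (Inv3 against Lac7), 0.36 (Lac7 against W10) and -0.35 (Inv3 against P18), since it flattens the 3p arm. Exact permutation of P18 against W10 (-0.91) gave an unadjusted p under 0.05. Without 1 library the ratio ranged from -0.95 to -0.51 for P18 against W10 (called without P18 mouse 3), from 0.94 to 1.34 for Inv3 against Lac7 and from -1.47 to -1.06 for Lac7 against W10, both always called. The correlation of miR-21a-3p with the epithelial sum was 0.02 in RPM and -0.020 with size factors. Same-numbered mice share only a number (mean r -0.05 over 33 pairs, from -0.79 to 0.61, after subtracting stage means). With the replicate block the 3p change between P18 and Lac7 stayed at -0.86 but was not called, and no other call on either arm or the ratio changed.

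The 7 reads of miR-21a-3p at Lac7 limit every statement on the arm ratio at that stage.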
